A study of Homo sapiens with 13 samples.

Results

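RAD51B, DNM3, KCTD1, HDAC9 and the neighbouring pair S100A10 and S100A11 lie in stretches of the genome where FOXA1 peaks stood close together in Ishikawa cells. A peak was counted as a member when its centre lay in 1 of 5 windows of the human build hg19. These were chromosome 14 from 68.25 to 69.1 Mb (RAD51B), chromosome 1 from 171.8 to 172.4 Mb (DNM3), chromosome 18 from 23.98 to 24.3 Mb (KCTD1), chromosome 7 from 18.1 to 19.05 Mb (HDAC9) and chromosome 1 from 151.9 to 152.03 Mb (S100A10 and S100A11). Together they span 2850 kb and held 148 of 54855 Ishikawa peaks (0.270%) and 25 of 13252 Hec1A peaks (0.189%). The windows were chosen by the density of peaks in the Ishikawa list, so Ishikawa numbers and levels are descriptions of that choice and carry no test. That the windows hold these genes was taken from their definition and not checked against an hg19 annotation. The Hec1A list took no part in the stated reason for the choice, but the windows were picked with results of both lists known.

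Chromatin immunoprecipitation and sequencing (ChIP-seq) with 1 rabbit antibody to FOXA1 was carried out in Ishikawa and Hec1A, established cell lines from human endometrial adenocarcinoma. By their labels, 6 libraries are FOXA1 ChIP of Ishikawa and 3 are FOXA1 ChIP of Hec1A, and each line has 2 libraries of input, which is sheared chromatin without immunoprecipitation. They name no treatment. The libraries of a line were pooled into 1 peak list, called on 343739762 tags in Ishikawa and 143055568 tags in Hec1A, so no value below has a replicate error and no test between the lines was possible.

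FOXA1 is a forkhead transcription factor known as a pioneer factor, because it binds its sites in closed chromatin and makes them accessible to other factors, among them the oestrogen receptor in breast and endometrial cells. Such factors often occupy many sites in the introns and flanks of a gene, and stretches with many strong sites close together are widely used to mark enhancer-rich regions. ChIP-seq measures occupancy, so it does not show whether a site acts on the gene it lies in or on a neighbour.

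The genes differ in function. RAD51B acts in the repair of DNA double-strand breaks by homologous recombination, and it is known as a fusion partner of HMGA2 in uterine leiomyoma. DNM3 encodes dynamin-3, a GTPase that pinches vesicles off membranes. KCTD1 is a BTB-domain protein known to repress transcription factors of the AP-2 family. HDAC9 is a class IIa histone deacetylase that represses targets of MEF2 factors. S100A10 is an S100 protein that binds annexin A2 at the plasma membrane, and S100A11 is a calcium-binding S100 protein that partners with annexin A1.

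In Ishikawa all 5 windows had a higher peak density than their flanks and their chromosome, and in Hec1A 3 windows exceeded both flanks and HDAC9 lay below both. The RAD51B window held 54 Ishikawa peaks, or 6.35 per 100 kb, with 22 and 27 peaks in flanks of the same length below and above it. The DNM3 window held 28, with 9 and 15 in its flanks, and the KCTD1 window 16, with 12 and 7. The HDAC9 window held 38, with 25 and 18 in its flanks. The S100A10 and S100A11 window was the shortest and the densest, with 12 peaks in 130 kb, or 9.23 per 100 kb, and 3 and 2 in its flanks. Each of the 5 windows therefore held more Ishikawa peaks than either flank. The ratio to the density of the whole chromosome ran from 2.11 for HDAC9 to 4.90 for S100A10 and S100A11. When the genome was cut into tiles of the length of each window, none of 3592 tiles held as many Ishikawa peaks as the RAD51B window. For the other windows, between 0.107% of tiles (S100A10 and S100A11) and 1.96% (HDAC9) did. The tiles lay on a fixed grid, whereas the windows were placed on dense stretches. A tile limit falls inside the RAD51B window, so its own peaks were split between tiles. These tile shares therefore describe the choice of windows and do not measure how rare such density is.

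The windows stood in the same order of density in Hec1A, but this order rests on 1 to 12 peaks per window. KCTD1 (0.938 per 100 kb) and DNM3 (0.833) nearly tied, so nothing is drawn from the order. The S100A10 and S100A11 window again had the highest density, with 4 peaks or 3.08 per 100 kb, against 0 and 2 peaks in its flanks. The RAD51B window held 12 Hec1A peaks, with 5 in each flank, and the KCTD1 window held 3, with 2 and 1. The DNM3 window held 5, as many as its upper flank and more than the 2 in its lower flank. The HDAC9 window held 1 Hec1A peak, with 4 in each flank. Its Hec1A density was 0.227 times that of chromosome 7, while its Ishikawa density was 2.11 times that of the same chromosome. Tiles with at least as many Hec1A peaks made up 1.499% for S100A10 and S100A11, 2.90% for RAD51B, 20.0% for KCTD1, 20.1% for DNM3 and 85.4% for HDAC9. The header of the Hec1A list records no input filter, although the name of the deposited list refers to inputs, so whether input was used in calling it is not settled here. It was also called from fewer tags, so counts are compared within a list and not between lists.

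**Figure D1:**
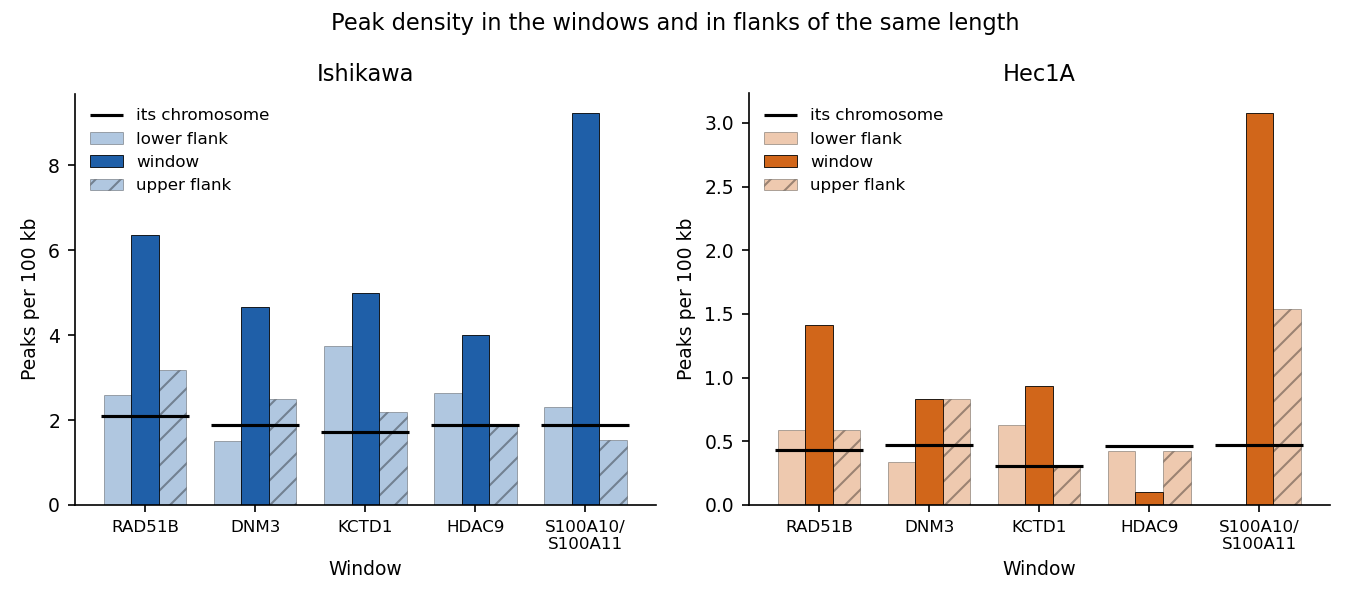
Peaks per 100 kb (vertical axis, from 0) in each window and in flanks of the same length below and above it, for the Ishikawa list (left) and the Hec1A list (right), with a black line for the density of the whole chromosome. Every Ishikawa window stood above both flanks, while in Hec1A the HDAC9 window, with 1 peak, lay below its flanks of 4 peaks each.

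The member peaks had higher signals than the Ishikawa list as a whole. The signal, which is the number of tags in a peak per 10000000 tags, had a median of 20.05 in the RAD51B window, 22.35 in the DNM3 window, 21.15 in the KCTD1 window, 17.0 in the HDAC9 window and 14.35 in the S100A10 and S100A11 window. The median of the whole Ishikawa list was 9.69. Of the 148 members, 89 (60.1%) were among the highest-scoring peaks that make up 25% of the list, and 25 (16.9%) were among the highest-scoring 5%. These 25 were 13 in the RAD51B window, 7 in DNM3, 3 in HDAC9, 2 in KCTD1 and 0 in S100A10 and S100A11. Score and peak density come from the same tags, so these counts are descriptions. In Hec1A, 12 of 25 members were among the highest-scoring 25% of that list, and the median signal was 7.97 against 4.96 in the whole list.

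**Figure D2:**
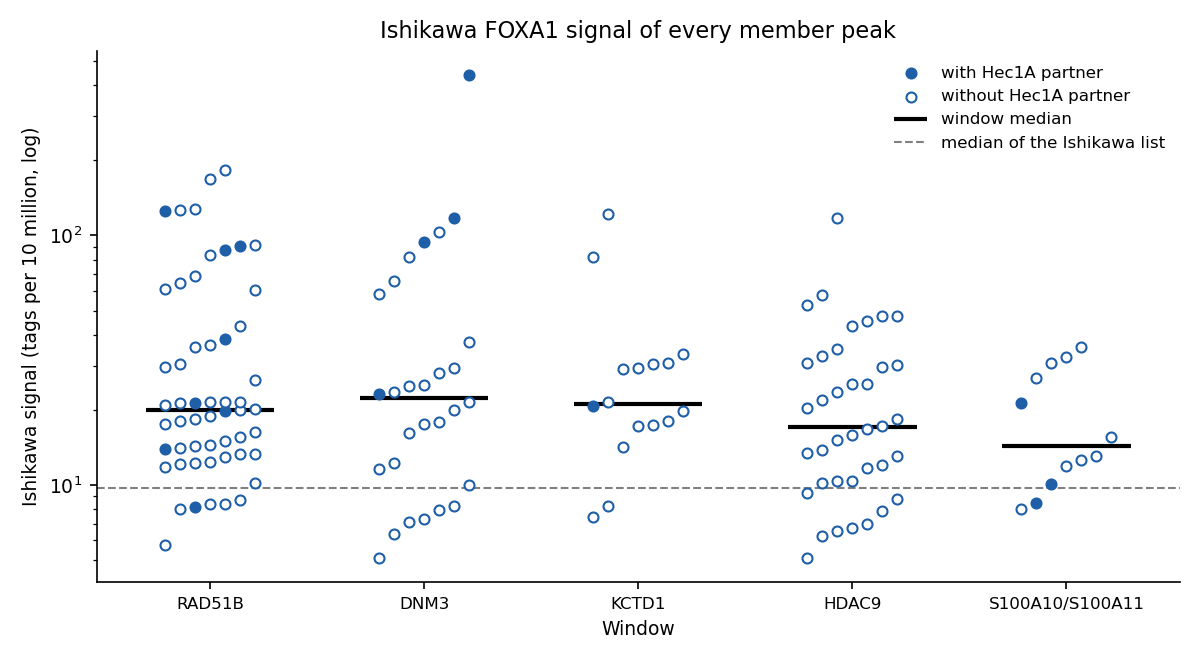
Ishikawa signal in tags per 10000000 (vertical axis, log scale) of every member peak by window, filled where the peak had a Hec1A partner, with a black bar for the median of the window and a dashed line for the median of the whole list, 9.69. All 5 window medians lie above the dashed line, from 14.35 to 22.35, and the highest point is the DNM3 peak at 439.7.

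Raised tag levels around the peaks went with the clusters. The local background, computed as the signal of a peak divided by its fold over the surrounding 10000 bp, had a median of 2.55 over the Ishikawa members and 1.34 over the list. The surrounding region can take in neighbouring peaks, so windows chosen for close peaks have a raised value by construction. The fold over the local region was 7.63 against 6.93, so it differed less than the signal did. Input tags per peak averaged 6.80 in the RAD51B window, against 5.52 for the other peaks of chromosome 14. They averaged 7.19 in KCTD1 (5.11 on the rest of chromosome 18), 6.39 in HDAC9 (5.22 on chromosome 7), 5.96 in DNM3 and 5.92 in S100A10 and S100A11 (5.33 on chromosome 1). Input was thus higher in all 5 windows, and its part in the peak numbers was not tested. The median fold over input was 12.6 in the members and 7.80 in the list. Clonal fold compares the unique tag positions expected in a peak with those found, and values above 1 mark tags stacked on few positions. It exceeded 1 in 25 Ishikawa members (16.9%, against 25.1% of the list) and in 7 Hec1A members (28.0%, against 28.8%). The Ishikawa members were unevenly spread, with 11 of 38 peaks in HDAC9, 5 of 54 in RAD51B and 5 of 28 in DNM3. KCTD1 had 1 of 16, and S100A10 and S100A11 had 3 of 12.

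**Figure D3:**
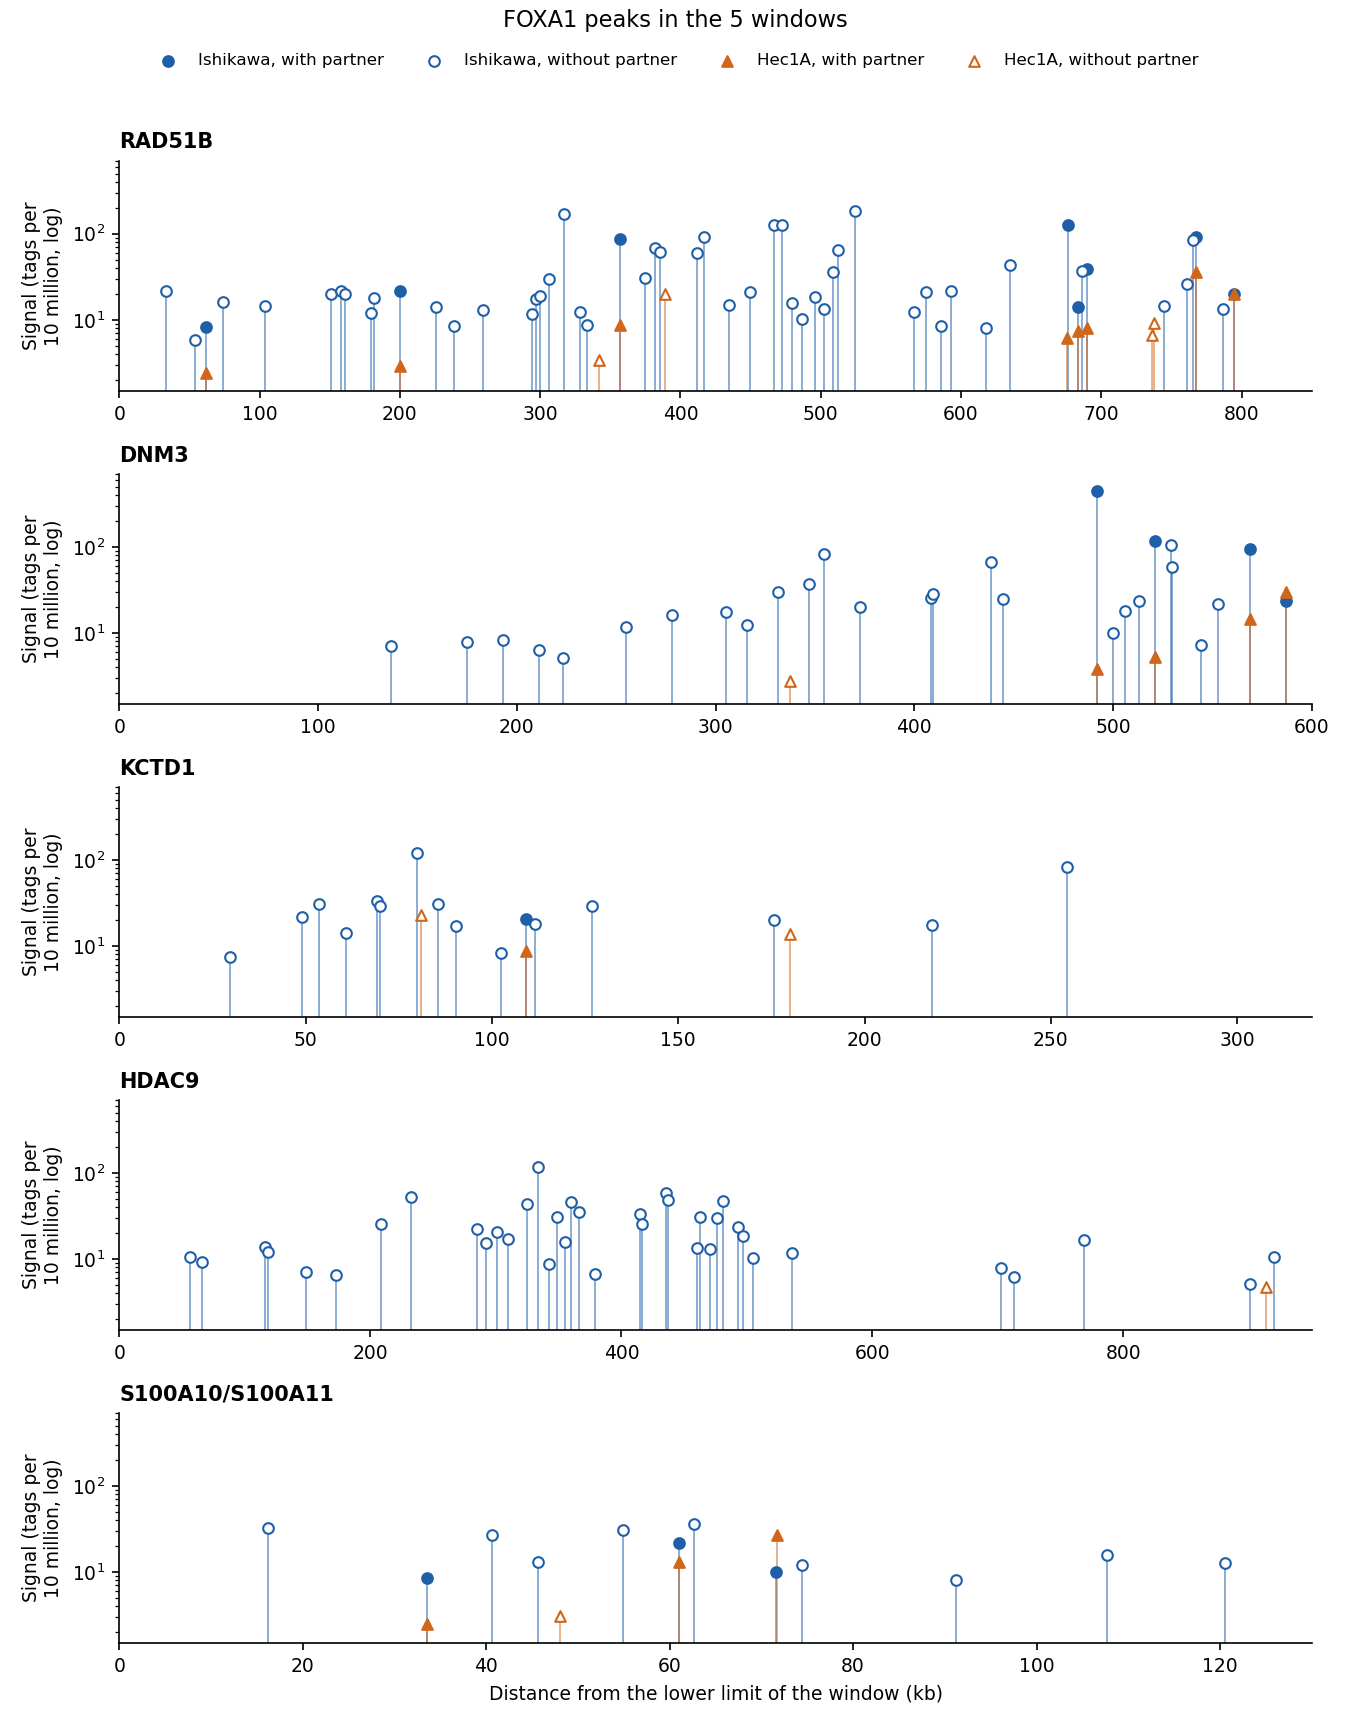
Position of each member peak from the lower limit of its window in kb (horizontal axis) and its signal in tags per 10000000 (vertical axis, log scale), with circles for Ishikawa and triangles for Hec1A, filled where the peak overlapped a peak of the other line. The 2 lists were scaled separately. Filled symbols are missing from the HDAC9 panel, and in DNM3 they lie in the upper part of the window.

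The next question was how many sites of these clusters were also occupied in Hec1A. Partners were defined as peaks whose deposited intervals share at least 1 bp. Of the 148 Ishikawa members, 16 had a Hec1A partner, a share of 10.8% (95% Wilson interval 6.76% to 16.8%) beside 12.8% of the whole Ishikawa list. Of the 25 Hec1A members, the same 16 sites were 64.0% (44.5% to 79.8%) beside 52.9% of the whole Hec1A list. Both list values lie inside these intervals, which cover counting error and treat peaks as independent. They fell outside under 2 other settings, the first of them chosen after seeing the data. Peaks of a cluster are not independent, so a list value inside or outside an interval is no test. With only peaks of clonal fold 1 or less in both lists, 9 of 123 Ishikawa members had a partner (7.32%, interval 3.90% to 13.3%), below 13.7% of the list. With the Ishikawa list shortened to the length of the Hec1A list, 12 of 25 Hec1A members had one (48.0%, interval 30.03% to 66.5%), above 29.9% of the list. The shortening was by score and kept 87 of the 148 Ishikawa members. As the windows were chosen for dense Ishikawa peaks, a share above the list's is favoured by construction in this setting. With only the Hec1A list held to a clonal fold of 1 or less, the Hec1A share was 66.7% (12 of 18 members), beside 64.4% of the list. Without the HDAC9 window the Ishikawa share was 14.5%. Among the highest-scoring 25% of peaks, 12 of 89 members (13.5%) had a partner, whereas 29.4% of such peaks did in the whole list. Of these 89 members, 19 lay in the HDAC9 window, where no Ishikawa peak had a partner and which lowers the share. Among the highest-scoring 5%, the numbers were 6 of 25 members (24.0%) and 43.5% in the list. The Hec1A share gains from dense Ishikawa peaks by construction, and neither difference was tested.

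The windows contributed unequally. RAD51B held 8 shared sites, which were 14.8% of its Ishikawa peaks and 66.7% of its Hec1A peaks. DNM3 held 4 (14.3% and 80.0%), S100A10 and S100A11 held 3 (25% and 75.0%), and KCTD1 held 1 (6.25% and 33.3%). HDAC9 held 0 of 38, a share of up to 7.89% by the limit of 3 counts. That limit takes each of the 38 peaks as able to find a partner. The window held only 1 Hec1A peak, so the 0 adds little to that number. The intervals of the other windows reach from 1.11% (KCTD1) to 53.2% (S100A10 and S100A11), and all of them overlap, so no order of the windows is drawn from these shares.

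The RAD51B window held the most peaks in both lists. Its Ishikawa peaks were spread along the whole window, with a median gap of 10.6 kb between neighbouring centres and none above 54.5 kb. The densest 100 kb held 11 of the 54 peaks, from 68543900 to 68635548, with 24.7% of the signal in the window. Signals ran from 5.76 to 182.8, and the 3 strongest of them held 22.9% of the total. By score, the first was at chromosome 14, 68774181 to 68774533, with a signal of 182.8, a fold over input of 101 and rank 282 of the list. The second was at 68566516 to 68566868 (signal 168.7, rank 357) and the third at 68722456 to 68722808 (signal 127.6, rank 596). None of these 3 had a Hec1A partner. No single peak dominated this window, the first holding 8.74% of its signal.

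The 3 highest-scoring Hec1A peaks of the RAD51B window lay elsewhere in it. The first, at 69017156 to 69017410, ranked 217 of the Hec1A list with a signal of 36.2, and its Ishikawa partner had a signal of 90.8 and rank 1358. The second, at 69044624 to 69044878, ranked 577 with a signal of 19.8, and its partner ranked 11078 with the same signal of 19.8. The third, at 68638945 to 68639199, ranked 799 with a signal of 19.7 and had no partner, the nearest Ishikawa centre being 3.70 kb away. All 3 are high in the Hec1A list, while in the Ishikawa list the same positions hold a strong peak, a weaker one and none.

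Of the other 6 shared sites of the RAD51B window, 4 had Hec1A signals above the list median of 4.96 and 2 lay below it. At 68607017 to 68607369 in Ishikawa the signals were 87.8 in Ishikawa and 8.74 in Hec1A (ranks 1281 and 2136). At 68925868 to 68926220 they were 125.1 and 6.08 (ranks 657 and 3627), with centres 190 bp apart, the widest offset of any shared site. The site at 68939729 to 68940081 had 38.6 and 7.97 (Hec1A rank 2446), and that at 68933335 to 68933687 had 14.0 and 7.34 (Hec1A rank 2689). The weak ones in Hec1A, at 68449915 to 68450267 with 21.4 and 2.94 and at 68311649 to 68312001 with 8.17 and 2.38, had Hec1A ranks of 9242 and 11000 among 13252. The Hec1A peaks left without a partner here were at 68591912 (signal 3.43), 68985756 (6.71) and 68987346 (9.30), the last 2 with clonal folds of 1.48 and 1.60. In Hec1A, 6 of the 12 peaks lay between 68925727 and 69017410, a stretch with 56.4% of its signal in the window.

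The DNM3 window was led by 1 peak. At chromosome 1, 172291614 to 172291966, the Ishikawa signal was 439.7, the fold over input 341 and the rank 38 of the list, and this peak held 33.3% of the Ishikawa signal of the window. The next by score were at 172320991 to 172321343 (signal 117.6, rank 808) and at 172328779 to 172329131 (signal 103.6, rank 943). A neighbour of the latter, with a signal of 58.2, had its centre 868 bp away, close to the minimum of 706 bp that the caller allowed between peaks. The densest 100 kb, from 172291614 to 172387020, held 11 of 28 peaks and 69.3% of the signal. Below it the signals ran from 5.09 at 172023168 to 82.1 at 172154252, with 65.8 at 172238210, and the lowest 137 kb of the window had no Ishikawa peak. DNM3 also hosts the antisense RNA DNM3OS and the microRNA genes MIR199A2, MIR214 and MIR3120 in RefSeq. Their positions in hg19 were not used here, so no peak was assigned to them.

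Shared sites in DNM3 had opposite orders of strength in the lines. The leading Ishikawa peak had a Hec1A partner with a signal of 3.77 and rank 6768, so it was in the highest 0.0693% of one list and at 51.1% of the other. The second Ishikawa peak had a partner with 5.24 and rank 4581. The site at 172368600 to 172368952 had an Ishikawa signal of 93.9 (rank 1091) and a Hec1A signal of 14.3 (rank 2374). The strongest Hec1A peak of the window, at 172386705 to 172386959 with 30.2 and rank 414, overlapped an Ishikawa peak of 23.2 and rank 8477. From the first to the last of these 4 sites along the chromosome the Ishikawa signal went from 439.7 down to 23.2 and the Hec1A signal from 3.77 up to 30.2. The fifth Hec1A peak, at 172137208 with 2.73, had no Ishikawa peak within 5.77 kb.

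The KCTD1 window was compact. Of its 16 Ishikawa peaks, 13 lay between 24009456 and 24107062, and neighbouring centres were as close as 832 bp. The first by score, at chromosome 18, 24059635 to 24059987, had a signal of 121.5, a fold over input of 67.2 and rank 737. The second, at 24234249 to 24234601, stood apart from this group with a signal of 81.8 and rank 1617. The third, at 24049081 to 24049433, had a signal of 33.5 and rank 5316. None of these 3 overlapped a Hec1A peak.

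The Hec1A peaks of the KCTD1 window were few but included strong ones. The strongest, at 24060889 to 24061143, had a signal of 22.6 and rank 454 of the Hec1A list. Its centre lay 1.21 kb from that of the leading Ishikawa peak, so the leading peaks of both lines were near neighbours without overlapping. The second, at 24159949 to 24160203, had a signal of 13.7 and rank 987, with the nearest Ishikawa centre 4.48 kb away. The third, at 24088932 to 24089186, had a signal of 8.60 and rank 6365 and was the shared site, with an Ishikawa signal of 20.7. Here the shared site was the weakest of the 3 Hec1A peaks by score and in the middle of the Ishikawa range.

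The HDAC9 window was dense in the Ishikawa list and held a single peak of the Hec1A list. Of its 38 Ishikawa peaks, 27 lay within 328 kb, from 18308226 to 18636468, with a median signal of 25.4, and the other 11 had a median of 9.28. The limits of this stretch were set after the values were seen. Above it followed 166 kb without a peak. The first by score, at chromosome 7, 18433520 to 18433872, had a signal of 117.5, a fold over input of 75.8 and rank 815. The next were at 18535122 to 18535474 (signal 57.7, rank 2357) and 18332040 to 18332392 (signal 52.4, rank 2683). No single peak dominated, since the first held 12.7% of the signal of the window.

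In Hec1A the single peak of the HDAC9 window lay near its upper limit, at 19013617 to 19013871. The Hec1A list was called from fewer tags, but its members reached lower signals (down to 2.38) than the Ishikawa members (down to 5.09). A site missing from the Hec1A list may still lie under its threshold. The listed peak had a signal of 4.68, rank 11365 of 13252 and a clonal fold of 1.72, and the nearest Ishikawa centre was 6.14 kb away. The Ishikawa peaks of this window lay a median of 400.5 kb from the nearest Hec1A centre. For Ishikawa peaks without a partner, the median was 33.6 kb in DNM3, 41.5 kb in RAD51B, 11.8 kb in KCTD1 and 7.12 kb in S100A10 and S100A11. The HDAC9 window is the longest, at 950 kb, with its 1 Hec1A peak near the edge. Its long distances largely follow from that and are no separate trait. Beyond the window, the nearest Hec1A peaks were 71.4 kb below its lower limit and 759 kb above its upper limit. In RefSeq the next protein-coding gene above HDAC9 is TWIST1, a transcription factor of epithelial-mesenchymal transition, and sequences within HDAC9 are known to regulate TWIST1 in other tissues. Expression of either gene was not measured in this series.

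No sequence of the hg19 peaks was used here, but RefSeq gives promoter windows of the member genes in the build GRCh38.p14, each from 250 bases before to 50 after a gene start. There were 14 of them for the 6 genes, 5 for HDAC9 and 4 for KCTD1. The forkhead letters TGTTTAC, searched on both strands, were in none of the 14 and in 3.42% of all 35116 promoters. The AP-1 letters TGACTCA were also in none, beside 4.95%. The hormone receptor half-site letters AGGTCA were in 3 of 14, beside 13.8%, and the GATA letters AGATAA in 1, beside 10.3%. Of the 3 windows with AGGTCA, 2 are overlapping HDAC9 windows with the same match. Both HDAC9 matches are printed in the direction of the gene, because HDAC9 was the gene with no shared site. Capitals mark the match, which lies on the opposite strand in each and so reads as its reverse complement.
HDAC9, chr7:18495589-18495654, plus strand, AGGTCA match: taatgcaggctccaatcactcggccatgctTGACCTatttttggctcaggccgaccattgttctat
HDAC9, chr7:18509136-18509201, plus strand, AGATAA match: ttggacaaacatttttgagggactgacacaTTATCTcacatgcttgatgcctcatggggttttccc
Since the peaks are in hg19 and the promoters in GRCh38.p14, no peak was placed in or near them. The letters describe these windows and are not sites shown to be bound.

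The window of S100A10 and S100A11 was the densest and had no very strong Ishikawa peak. Its 12 Ishikawa signals ran from 8.03 to 35.6, with a median gap of 8.94 kb, and 11 of them lay between 151916046 and 152007862. By score the first was at chromosome 1, 151916046 to 151916398 (signal 32.7, rank 5233), followed by 151962522 to 151962874 (35.6, rank 6141) and 151940440 to 151940792 (26.8, rank 6867). None of these overlapped a Hec1A peak. The highest fold over input, 63.6, belonged to the first. All 4 Hec1A peaks lay between 151933373 and 151971802, with neighbouring centres 10.7 to 14.5 kb apart.

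The 2 strongest Hec1A peaks of this window overlapped Ishikawa peaks that were not among its 3 highest-scoring. The peak at 151971548 to 151971802 had a Hec1A signal of 27.1 (rank 1951), and its Ishikawa partner had 10.1 (rank 24363 of 54855). The peak at 151960855 to 151961109 had 13.1 (rank 2656), with an Ishikawa signal of 21.4 (rank 11454). The third shared site, at 151933373 to 151933627, was weak in both, with 2.45 in Hec1A and 8.44 in Ishikawa. The third Hec1A peak by score, at 151947881 to 151948135 with 3.08, had no partner, and its nearest Ishikawa centre was 2.32 kb away. The clonal folds of the 2 strongest Hec1A peaks here were 1.64 and 1.23, so their tags were stacked on fewer positions than expected.

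At the 16 shared sites the peak centres of both lines nearly coincided, while their ranks differed. The centres of partners lay a median of 10.0 bp apart, beside 14.0 bp over all 7012 shared pairs of the lists. Ranked within their own lists, 10 sites stood higher in Ishikawa and 6 higher in Hec1A. Over all 7012 shared pairs, 5224 stood higher in Ishikawa and 1788 in Hec1A, so a lean towards Ishikawa is not particular to the windows. The Spearman rho of the scores was 0.197 over the 16 sites and 0.533 over all 7012 pairs. This is a description across sites that share the same pooled libraries, and it carries no test. The largest differences towards Ishikawa were the leading DNM3 peak and the RAD51B site at 68449915, each 51.0 percentage points of list rank higher there. The largest towards Hec1A was the site at 151971462 in the S100A10 and S100A11 window, with 29.7 points (14.7% of the Hec1A list and 44.4% of the Ishikawa list).

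**Figure D4:**
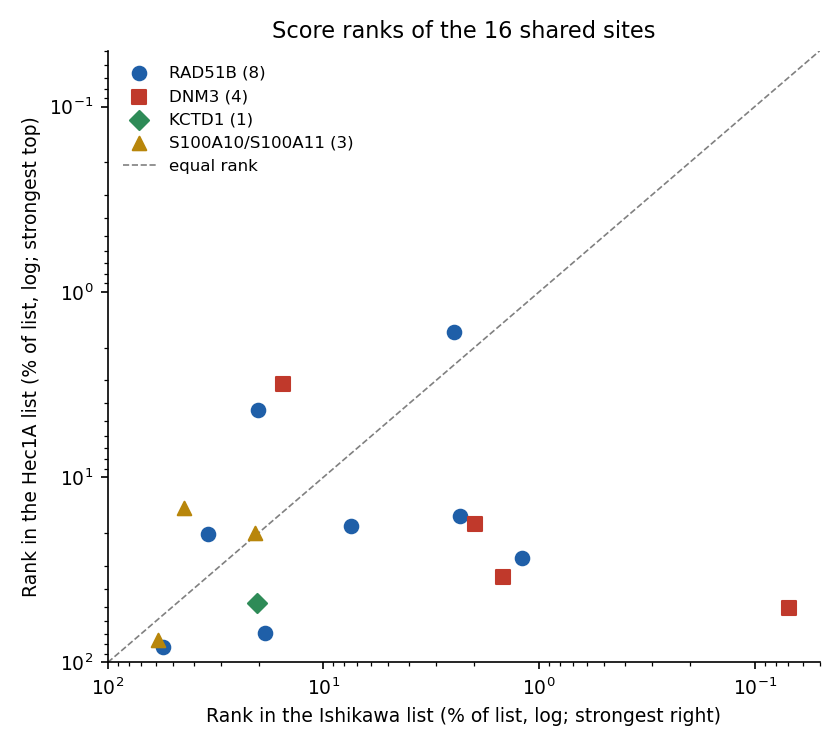
Rank by score of each of the 16 shared sites, in percent of the Ishikawa list (horizontal axis) and of the Hec1A list (vertical axis), both on log scales with the strongest peaks to the right and at the top. Of the 16 points, 10 lie below the dashed line of equal rank (higher in Ishikawa) and 6 above it. Over all 7012 shared pairs, 5224 ranked higher in Ishikawa and 1788 in Hec1A. The point farthest to the right is the DNM3 peak of Ishikawa rank 38.

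Of the 9 Hec1A members without a partner, 1 lay within 2 kb of an Ishikawa centre and 4 within 5 kb, and the farthest was 8.55 kb away. The windows were chosen for dense Ishikawa peaks, whose neighbouring centres were a median of 8.35 to 15.6 kb apart. Short distances follow from that choice, and those of all Hec1A peaks without a partner were not computed. At the limits of the windows, the nearest Ishikawa peak outside was 1.19 kb above the DNM3 window (signal 5.06), 1.74 kb below the S100A10 and S100A11 window (5.85) and 2.999 kb below the HDAC9 window (5.44). The nearest inside at the same limits had signals of 23.2, 32.7 and 10.4. Within 50 kb outside the HDAC9 lower limit there were 4 further Ishikawa peaks.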

How the data were processed

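The values start from 1 deposited FOXA1 peak list per cell line. The submitters' processing notes list HOMER 4.7.2, SAMtools 1.3.1 and Bowtie 1.1.2, with hg19 as the build. The authors pooled the tags of a line, per the file headers, and called peaks with the findPeaks program in factor style, at a false discovery rate of 0.001, which set 88 tags as the minimum in Ishikawa and 32 in Hec1A. Required were a fold of 4 over the surrounding 10000 bp and unique tag positions no more than a fold of 2 below expectation. Ishikawa peaks also had to exceed pooled input by a fold of 4. The Hec1A header records no such filter. Peak size was 353 and 254 bp. The deposited signal is tags per 10000000, the deposited focus ratio a fraction, the deposited findPeaks score a tag number, and the deposited folds are ratios. The deposited p-values and the focus ratio were not used in comparisons.

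Partners, densities, flanks, tiles, ranks by score and local background were computed with Python 3.11.15, pandas 2.3.3, numpy 2.4.6 and scipy 1.17.1. Tiles run from the start of each chromosome to its last Ishikawa peak, and chromosome densities use the span from first to last peak. Shares have 95% Wilson intervals. The overlap and window procedures were tested on simulated data. In each window the 3 peaks of highest score in each list were named, and all shared sites, as no window held more than 10. The windows and lists were chosen with earlier results of these data known. TruSeq and ThruPLEX libraries were mixed within each pool, so the kits could not be separated. Neither an annotation nor a sequence of hg19 was used here, so exons, introns and motifs of peaks, and the most alike other genes, are not analysed here.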

Additional observations from a re-analysis of the deposited data

How the results depend on the processing

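Over results and settings 29 alternatives were computed. Of these, 24 kept counts within 1.5 times, shares within the 95% Wilson interval of the main setting, or rho within 0.1. Settings with a window left out reuse most of the same peaks, so they could hardly leave that interval. The 24 also take no account of the list's value beside each share. The settings on clonality in both lists and on rho were chosen after seeing the data. When the fold over the surrounding 10000 bp had to reach 8, 62 Ishikawa and 10 Hec1A peaks were left in the windows. Of these, 6.45% of the Ishikawa peaks (4 of 62) and 40.0% of the Hec1A peaks (4 of 10) had a partner, beside 9.44% and 60.3% of the lists so filtered. The lower counts follow from the threshold, and for the shares the cause was not tested. With as many Ishikawa peaks as the Hec1A list holds, 87 were left in the windows, and 48.0% of Hec1A members had a partner (30.03% to 66.5%), beside 29.9% of the list. With clonal folds of 1 or less in both lists, the Ishikawa share was 7.32% (3.90% to 13.3%), beside 13.7%. These intervals do not hold the list's value, unlike those of the main setting. With the shortened list, the choice of the windows favours a higher share by construction. For the clonal setting the cause was not tested. The Hec1A share thus stood above the list's value in the main setting and with the shortened list, and below it at the fold of 8. With only the Hec1A list held to a clonal fold of 1 or less, it was 66.7% (12 of 18), close to 64.4% of the list so filtered. With each window left out in turn, the Ishikawa share ranged from 8.51% (RAD51B) to 14.5% (HDAC9). The motif share of peaks was not run, as no hg19 sequence was used here. The pools allowed no library to be left out. No paired analysis was possible because each list comes from pooled libraries. Depth differed between the lines (143055568 tags in Hec1A against 343739762 in Ishikawa). The minimum per peak, 32 against 88 tags, was set on these unlike totals, so it does not show a stricter threshold in either list. A site missing from the Hec1A list was not called there, which does not show that FOXA1 was absent.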
